A study of Homo sapiens with 3 samples.

Results

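The genes described here are 10 inhibitors that mitogen-activated protein kinase (MAPK) signaling switches on against itself. They are the dual-specificity phosphatases DUSP1, DUSP4, DUSP5, DUSP6 and DUSP10, the Sprouty proteins SPRY1, SPRY2 and SPRY4, and the Sprouty-related proteins SPRED1 and SPRED2. Every probe whose symbol in the array annotation is one of these was taken. This gave 17 probes for 10 genes, of 28093 probes with a single symbol for 18851 genes. Of the 17 probes, 5 were detected on all 3 arrays, 4 on 1 or 2 arrays and 8 on none.

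The cells were of H2373, a line from malignant pleural mesothelioma, the tumor of the lining of the lung, and received no dye or the Hoechst dye H258 or H342 at 36 µM for 3 h. Both dyes are bis-benzimides that bind the minor groove of DNA at runs of A and T, and their structures differ in 1 substituent, which is an ethoxy group in H342 in place of the hydroxyl group of H258. A single Illumina BeadChip array was hybridized per condition, so each of the 3 conditions was measured once, no error between replicates and no p-value for a difference can be given, and no order of the conditions could be tested. The study compared the dyes because their effects on these cells differ.

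Growth factor receptors activate RAS, RAF, MEK and then the kinase ERK, whereas stress activates the related kinases JNK and p38. ERK induces genes whose products shut the cascade down again: DUSPs remove the phosphates that make a MAPK active, and Sprouty and Spred proteins act upstream, between the receptor and RAF. The mRNAs of the inducible members are short-lived, and their levels are commonly read as a record of recent MAPK activity.

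Signals are bead averages with no background subtracted. A probe was counted as detected where its p against the negative control beads of the same array was under 0.05. The lowest detected signals were 156 in untreated, 160.0 in H258-treated and 157 in H342-treated cells, and the arrays had similar median signals, between 130.0 and 134. Differences are log2 differences after background correction and quantile normalization (neqc, offset 16), taken for the brightest probe of a gene. Genes with detection on either array of a comparison were tested, and those that differed by 2-fold or more were called. Where the lower array had no detection, the fold is given as a bound against the lowest detected level of that array. Such an "at least" fold holds for the background-corrected values only, and other processing can give a smaller fold. In bulk RNA, fewer cells with an mRNA and less mRNA per cell cannot be told apart.

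Of mesothelial markers, 9 of 13 were detected on at least 1 array, among them MSLN (mesothelin) at signals of 1533 in untreated, 2063 in H258-treated and 2575 in H342-treated cells. VIM (vimentin) and KRT7 (a keratin of simple epithelia) were the brightest of the list. Calretinin (CALB2) and WT1 were detected on every array, whereas UPK3B, PDPN, LRRN4 and KRT5 were detected on none. Of lung epithelial markers 1 of 6 was detected, EPCAM, in H342-treated cells at a signal of 162, and of leukocyte markers 2 of 4, CD68 and CD14, with PTPRC and CD3E not detected. Of endothelial markers 1 of 4 was detected, PECAM1. None of the mesothelial, lung epithelial, leukocyte or endothelial markers tested, and none of the 10 reference genes, was called in any comparison.

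The stretches of DNA just before the start sites of 5 of the genes are shown because both dyes bind A and T runs and because these genes cover the patterns described: DUSP6, DUSP10 and SPRY2 lower in H342-treated cells, DUSP1 higher in H258-treated cells, and SPRED1 lower with either dye. They are RefSeq promoter windows of GRCh38.p14, cut to the 250 bases before the transcription start and written 5′ to 3′ on the strand of the gene, with runs of at least 5 A or T bases in capitals. The windows lie at chr13:80341127-80341376 (minus strand, SPRY2), chr12:89352502-89352751 (minus strand, DUSP6), chr1:221742090-221742339 (minus strand, DUSP10), chr5:172771196-172771445 (minus strand, DUSP1) and chr15:38252586-38252835 (plus strand, SPRED1).
SPRY2: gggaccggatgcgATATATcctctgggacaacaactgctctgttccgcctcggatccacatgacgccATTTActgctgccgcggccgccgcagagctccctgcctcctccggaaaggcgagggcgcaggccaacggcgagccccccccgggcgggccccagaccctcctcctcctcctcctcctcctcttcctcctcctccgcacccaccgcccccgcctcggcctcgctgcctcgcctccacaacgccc
DUSP6: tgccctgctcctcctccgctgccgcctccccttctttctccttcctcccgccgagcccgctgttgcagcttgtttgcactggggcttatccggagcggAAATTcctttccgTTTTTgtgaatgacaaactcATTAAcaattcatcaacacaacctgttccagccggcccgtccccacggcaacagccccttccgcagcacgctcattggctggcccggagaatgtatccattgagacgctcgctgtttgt
DUSP10: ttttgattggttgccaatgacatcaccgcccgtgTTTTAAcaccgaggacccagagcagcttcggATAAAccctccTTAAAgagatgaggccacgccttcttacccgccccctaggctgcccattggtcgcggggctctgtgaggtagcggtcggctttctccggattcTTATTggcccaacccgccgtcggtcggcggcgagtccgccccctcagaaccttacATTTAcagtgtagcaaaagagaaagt
DUSP1: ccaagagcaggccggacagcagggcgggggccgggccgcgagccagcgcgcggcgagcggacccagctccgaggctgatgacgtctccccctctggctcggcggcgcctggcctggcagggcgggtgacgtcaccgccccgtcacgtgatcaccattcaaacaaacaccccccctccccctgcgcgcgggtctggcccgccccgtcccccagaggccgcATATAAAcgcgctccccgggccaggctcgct
SPRED1: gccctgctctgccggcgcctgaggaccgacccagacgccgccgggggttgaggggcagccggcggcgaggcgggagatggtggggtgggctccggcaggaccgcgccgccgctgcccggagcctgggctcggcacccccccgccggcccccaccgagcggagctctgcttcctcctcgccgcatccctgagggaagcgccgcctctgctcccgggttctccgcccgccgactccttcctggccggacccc

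A and T made up 43.6% of the DUSP10 window, with 5 such runs, and 42.8% of the DUSP6 window, with 3 runs. The SPRY2 window had 29.6% and 2 runs, the DUSP1 window 25.6% and 1 run, and the SPRED1 window 21.6% and no run. Over all 35116 promoter windows, the median was 42%, with quartiles of 32% and 53.6%, and 73.8% of windows held at least 1 run. None of the 5 windows was therefore above the upper quartile in A and T, and the 3 with the lowest content lay below the lower quartile. This does not hold for every window of the set. Windows not shown, some at further starts of the same genes, had between 32% (SPRY1) and 60.8% (SPRED2). Further starts of SPRY2 had 37.6% and 58.8%, the latter with 6 runs, and the window at the gene start of SPRY1 had 54.4%.

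The DUSP1 window held a full cAMP response element, TGACGTCA, which begins 125 bases before the start and which 1.65% of all windows hold. It also held a TATA box, TATAAA, 30 bases before the start (10.7% of windows). The SPRY2 window held an ETS core, CCGGAA, 142 bases before the start (14.5% of windows), and ETS factors are well known substrates of ERK. The GC box, GGGCGG, which 42.6% of windows hold, was found in the windows of SPRY2, DUSP10, DUSP1 and SPRED1. Motifs were searched on both strands, and the AP-1 site TGACTCA, in 4.20% of windows, was in none of the 5. Of the 10 genes, 8 had a window among those used here.

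DUSP1 (MKP-1) is a nuclear phosphatase of JNK, p38 and ERK and an immediate early gene of stress and growth factors. Its signal was 2287 in untreated, 3954 in H258-treated and 1615 in H342-treated cells, detected on all 3 arrays. H258-treated cells were thus the highest and H342-treated cells the lowest. The log2 difference from untreated cells was 0.80 with H258, a 1.74-fold higher level, and -0.45 with H342, a 1.36-fold lower level, neither of them past 2-fold. Between the dyes DUSP1 was 2.37-fold lower with H342, a log2 difference of -1.24, and this difference stayed past 2-fold without background correction, at -1.19, and in the deposited normalized values, at -1.15.

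DUSP5 is a nuclear phosphatase that acts on ERK alone. Its signal was 540 in untreated, 434 in H258-treated and 329 in H342-treated cells, so that both treated arrays lay below the untreated one. The log2 difference was -0.33 with H258 and -0.87 with H342, a 1.83-fold lower level. It was not called.

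DUSP6 (MKP-3) is the cytoplasmic phosphatase of ERK, and its mRNA is among the most widely used readouts of ERK activity. The signal of its brighter probe was 258.2 in untreated, 202 in H258-treated and 146 in H342-treated cells, where it was no longer detected (detection p 0.0764). The levels went down in that order, but all 3 signals were close to the detection limit. DUSP6 was 1.503-fold lower with H258, a log2 difference of -0.59, and at least 2.64-fold lower with H342, a log2 difference of -1.62. Between the dyes it was at least 1.76-fold lower with H342. The second DUSP6 probe had signals between 121 and 139 and was detected on no array.

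DUSP10 (MKP-5) acts on JNK and p38 and spares ERK. Its signal was 227 in untreated, 182 in H258-treated and 134 in H342-treated cells, the last of them not detected (detection p 0.169). The order of the arrays was the same as for DUSP5 and DUSP6. DUSP10 was 1.52-fold lower with H258 and at least 2.07-fold lower with H342, with log2 differences of -0.60 and -1.48. Between the dyes its log2 difference was -0.88, at least 1.36-fold lower with H342. DUSP4 (MKP-2), a nuclear phosphatase of ERK and JNK, had 2 probes with signals between 99.8 and 131, neither detected on any array, and it was not tested.

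**Figure D1:**
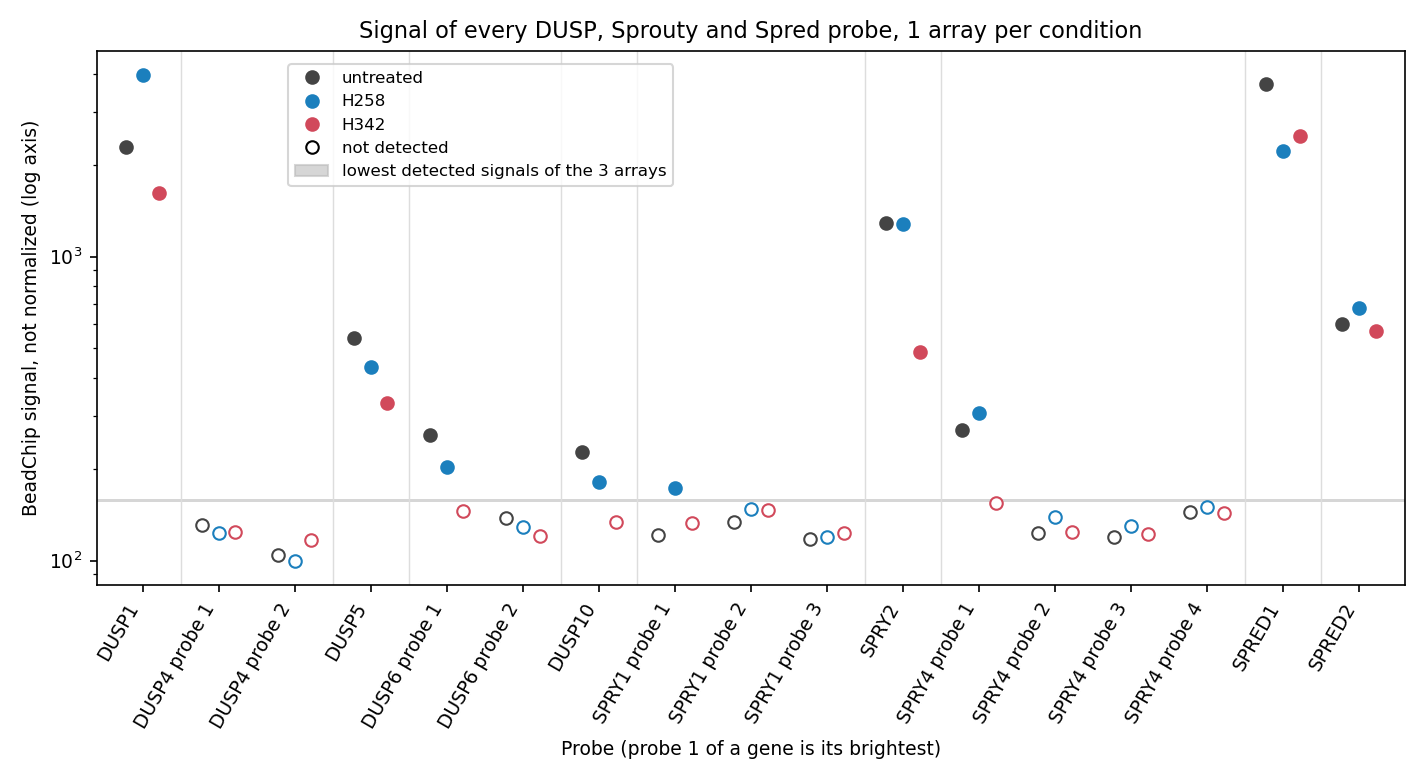
Signal of each of the 17 probes, on a log axis and not normalized, on the untreated, H258 and H342 arrays; filled points were detected, open points were not, and the grey band spans the lowest detected signals of the 3 arrays. The probes of DUSP6, DUSP10 and SPRY4 that were detected in untreated and H258-treated cells lie under the band in H342-treated cells, whereas SPRY2 lies well above it at 1290 in untreated and 485 in H342-treated cells.

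SPRY2 binds the adaptor GRB2 after phosphorylation and restrains signaling from growth factor receptors to RAS. Its signal was 1290 in untreated, 1282 in H258-treated and 485 in H342-treated cells, detected on all 3 arrays. The untreated and H258-treated arrays were thus nearly equal, at a log2 difference of 0.03 whose sign turned under other scalings (-0.05 with cyclic loess), and the H342-treated array stood apart from both. SPRY2 was 2.95-fold lower with H342 than in untreated cells, a log2 difference of -1.56, and 3.00-fold lower than with H258, a log2 difference of -1.59. It was the only one of the 10 genes that was detected on all arrays and past 2-fold against untreated cells with H342. It kept that in the deposited normalized values, at -1.24, and without background correction, at -1.33.

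SPRY4, which inhibits activation of RAF downstream of receptor tyrosine kinases, had 4 probes, of which 1 was detected on any array. Its signal was 269 in untreated, 306 in H258-treated and 155 in H342-treated cells, the last just short of detection (detection p 0.0527). SPRY4 was therefore slightly higher with H258, at a log2 difference of 0.40, and at least 2.84-fold lower with H342, at -1.54. Against H258 it was at least 3.75-fold lower with H342 in background-corrected values, at -1.94. The difference was smaller without background correction, at -0.97, and in the deposited values, at -1.06. The other 3 SPRY4 probes had signals between 120 and 150 and were not detected on any array.

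SPRY1, which in the mouse kidney restrains signaling from the receptor RET, showed another pattern. The brightest of its 3 probes by mean normalized level had a signal of 121 in untreated, 173 in H258-treated and 133 in H342-treated cells, and only the H258-treated array detected it (detection p 0.0303). It was at least 1.32-fold higher with H258 than in untreated cells, a log2 difference of 0.96, and at least 1.21-fold lower with H342 than with H258. With neither array detected, it was not tested between H342-treated and untreated cells. The other SPRY1 probes, at 117 to 148, were detected nowhere. Of these, 1 was at 134 in untreated, 148 in H258-treated and 147 in H342-treated cells, with the dyes nearly equal. The higher level with H258 than with H342 therefore rests on 1 probe and 1 detected array.

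SPRED1 and SPRED2 bind neurofibromin, the RAS inactivator NF1, and bring it to the membrane. SPRED1 had a signal of 3708 in untreated, 2225 in H258-treated and 2484 in H342-treated cells. It was lower with either dye, by 1.71-fold with H258 and 1.42-fold with H342, with log2 differences of -0.77 and -0.51, and it was lowest with H258, unlike SPRY2. SPRED2 had signals of 601, 677 and 567 in the same order. Its log2 differences were 0.27 with H258 and -0.01 with H342, so that neither SPRED gene was called in any comparison. NF1 itself was dim, at a signal of 176 in untreated, 153 in H258-treated and 147 in H342-treated cells, and was not called.

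Across the set, before normalization, the H342-treated array had the lowest signal for 7 of the 9 genes with a detected probe and the highest for none. The share over all genes was not counted. That array also had the lowest median signal, 130.0 beside 133.5 in untreated and 132.4 in H258-treated cells. SPRED2 is among the 7 at a log2 difference from untreated cells of only -0.01, so nothing is read from this count. Against untreated cells, 4 of the 8 genes tested were called lower with H342, DUSP6, DUSP10, SPRY2 and SPRY4, and none was called higher. Of all 10581 genes tested, 3.61% were lower and 1.25% were higher by that much. DUSP6, DUSP10 and SPRY4 were tested only because untreated cells detected them, and a gene that enters this way is lower by selection, so the count over the genes tested is a description. Among the 5 genes detected on both arrays, SPRY2 alone was called, and of all 9460 genes so detected, 295 were lower by 2-fold. The median log2 difference of the 5 was -0.51. Over the 8 genes tested the median was -1.18, and -0.96 with undetected sides at their bound, beside 0.03 over all genes. All 8 lay below 0, as did 46.8% of all genes tested.

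Calls were somewhat more frequent among dim genes. Of 3557 tested genes with a mean signal under 300, 4.61% were lower by 2-fold with H342. DUSP6, DUSP10 and SPRY4, the 3 of the set in that range, were all called, but they were tested only through untreated cells, where they were high, so nothing is read from this count. Of 7024 genes at 300 or more, 3.10% were lower, and of the 5 genes of the set there, all detected on both arrays, SPRY2 was called. Of the 10581 genes tested, 1.06% were at least as low as SPRY2 and 4.79% as DUSP5. For DUSP6, DUSP10 and SPRY4 no rank is given, since their level with H342 is only bounded. DUSP1 and SPRED1 were less extreme, with 14.1% and 11.96% of genes at least as low.

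With H258, none of the 9 genes tested was called lower, against 3.35% of 10550 genes, and none was called higher, against 0.768%. Of the 9, 4 lay below 0 and 5 above, with a median log2 difference of 0.03 beside 0.06 over all genes. SPRED1, DUSP10, DUSP6 and DUSP5 were the lower ones. DUSP1 was the highest of the genes measured on both sides, with 2.12% of genes at least as high, and SPRY1 was tested only because H258-treated cells detected it. Over all genes the split of the calls moved with the scaling: 81 were higher and 353 lower with H258, and with median scaling 47 and 433. With H342 it was 132 and 382, and without normalization between arrays 87 and 467. The robust SD of the differences over all genes, which holds real differences as well as noise, was 0.419 with H258 and 0.387 with H342.

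**Figure D2:**
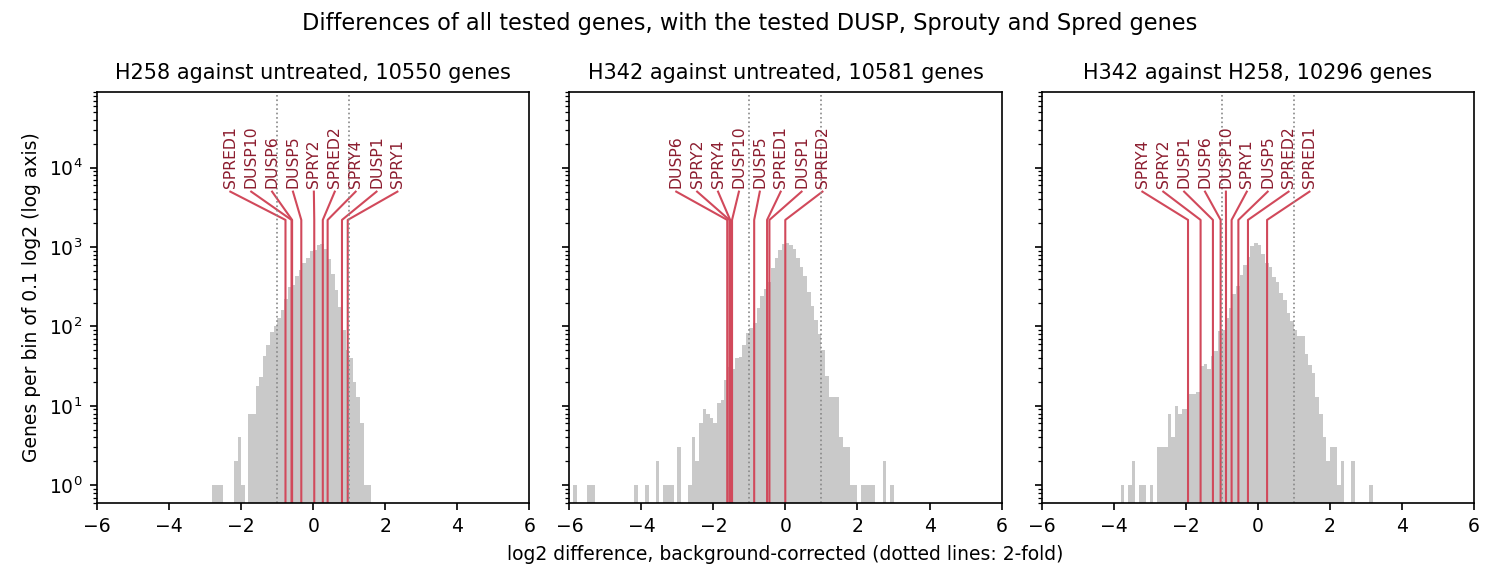
Histograms of the log2 difference of all tested genes (bins of 0.1, log axis of gene number) in the 3 comparisons, with lines at the tested DUSP, Sprouty and Spred genes and dotted lines at 2-fold. With H258 the set spreads over both sides of 0 and stays inside 2-fold, and with H342 against untreated cells DUSP6, SPRY2, SPRY4 and DUSP10 lie between -1.62 and -1.48. Of these, only SPRY2 was detected with H342. With the undetected side at the lowest detected level, DUSP6 was at -1.40, SPRY4 at -1.51 and DUSP10 at -1.05.

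The direct comparison set the analogs side by side at the same dose and time. With H342 against H258, 4 of the 9 genes tested were called lower, DUSP1, DUSP6, SPRY2 and SPRY4, and none was called higher. For DUSP6 the call rests on the fitted difference of -1.03, since its bound is 1.76-fold, and with undetected sides at the bound 3 genes were called. Their number was also 3 with median scaling, with an offset of 50 and in the deposited values. Over all 10296 genes tested, 3.69% were lower and 3.74% higher. The median was -0.88 over the 9 genes, and -0.54 over the 5 detected on both arrays, beside -0.01 over all genes. DUSP6, DUSP10, SPRY1 and SPRY4 were tested only through their detection with H258, and their undetected sides at the bound gave a median of -0.54 over the 9 genes. SPRED1 was the only one higher with H342, at a log2 difference of 0.26. Among genes with a mean signal under 300, 4.34% of 3272 were lower and DUSP6 and SPRY4 were 2 of 4. These 4 are the genes tested only through H258, where they were high, so nothing is read from that count. At 300 or more, 3.39% of 7024 were lower and DUSP1 and SPRY2 were 2 of 5. Because the comparisons with untreated cells share 1 array, a low or high value on it moves both. With 1 array a dye, no interval of the difference between the dyes can be given for the genes that were not called.

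The values of the dim genes depended on how background was treated. Without background correction, DUSP6 had a log2 difference of -0.76 with H342 against untreated cells, DUSP10 -0.70 and SPRY4 -0.73, none of them past 2-fold. In the normalized values that the authors deposited they were -0.86, -0.80 and -0.81. The directions were the same under each treatment of the data, and SPRY2 alone of the 4 stayed past 2-fold. Against H258, SPRY4 was at -0.97 without background correction and at -1.06 in the deposited values, DUSP6 at -0.46 and -0.55, and SPRY2 at -1.36 and -1.27.

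**Figure D3:**
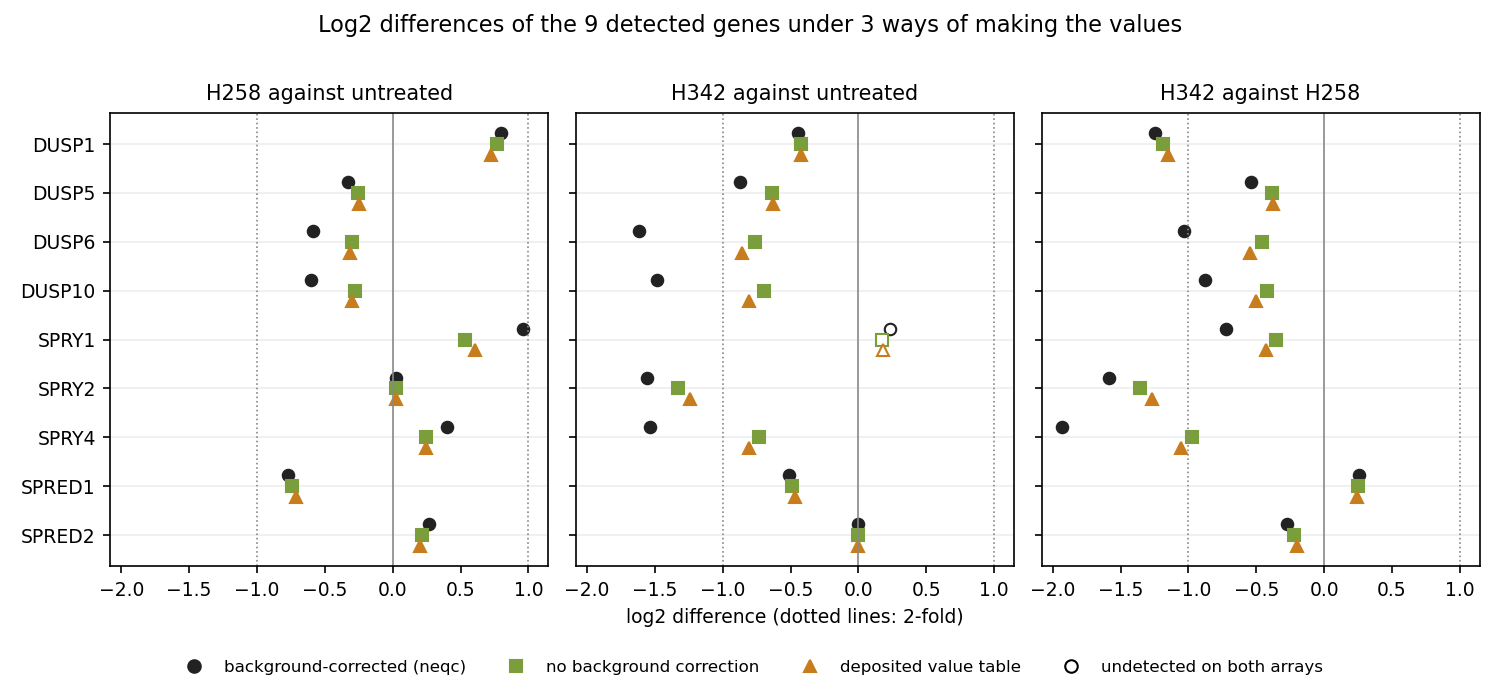
Log2 difference of the 9 genes with a detected probe in the 3 comparisons, from background-corrected values (circles), without background correction (squares) and from the deposited value table (triangles); dotted lines mark 2-fold and open points a gene undetected on both arrays. With H342 against untreated cells, the 3 values lie closer together for DUSP1, DUSP5, SPRY2, SPRED1 and SPRED2 than for DUSP6, DUSP10 and SPRY4. For these last 3 genes, only the background-corrected values pass 2-fold. The values of SPRY1 lie apart with H258.

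The other genes of the pathway were read from lists and are given as counts of called genes and medians. Of their 12 calls with H342, 5 stayed past 2-fold both without background correction and in the deposited values (ERRFI1, GADD45G, GADD45B, FOS and IER3), and of 3 calls with H258 none did. Of 5 other MAP kinase phosphatases, 4 were tested, and DUSP8, a phosphatase of JNK and p38, was 2.71-fold higher with H342, at signals of 172 in untreated, 192 in H258-treated and 269 in H342-treated cells. Its log2 difference of 1.44 was 0.70 without background correction and 0.75 in the deposited values, short of 2-fold. The group's median was -0.35, and none was lower by 2-fold. Of 9 atypical dual-specificity phosphatases, 1 was called, DUSP18, 2.002-fold higher with H342, and their median was 0.01. DUSP3 and DUSP12 were the brightest of them and had log2 differences of -0.34 and -0.28.

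Among 12 tested inhibitors of receptor and RAS signaling outside the set, 2 were called higher with H342 and none was called lower. ERRFI1 (MIG6), the feedback inhibitor of the EGF receptor, had a signal of 11219 in untreated, 8679 in H258-treated and 21484 in H342-treated cells, 2.07-fold higher than untreated. LRIG1, which promotes turnover of ERBB receptors, was at 1907, 2974 and 3553, and 2.06-fold higher with H342. These 2 inhibitors, which act on the receptor itself, were thus higher on the array where SPRY2 was lower. LRIG1 was also higher with H258, at a log2 difference of 0.68, where SPRY2 was nearly equal to untreated cells. In the deposited values its difference with H342 was 0.96, short of 2-fold. The median of the 12 was -0.14, so the list as a whole was not higher.

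Of the components of the cascade, no tested gene of 16 was called with H342, at a median of 0.12. The kinases MAP2K1, MAP2K2 and MAPK3 had log2 differences between 0.09 and 0.17. With H258, SHOC2, a scaffold that helps activate RAF, was 2.02-fold lower. Of 13 growth factor receptors tested with H342, 1 was called, IGF1R, at a log2 difference of 1.06 and at least 1.71-fold higher, and of 11 ligands, FGF2 was 2.03-fold lower with H258 and none was called with H342. Of 21 genes of the JNK, p38 and ERK5 branches, GADD45G and GADD45B, activators of stress kinase signaling, were 2.84-fold and 2.49-fold higher with H342. No gene of these branches was called lower, and their median was -0.08, so the list as a whole was not higher.

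The transcriptional targets of ERK went in both directions. With H342, 4 of 22 were called higher and 1 was called lower, at a median of 0.09. IER3, an early gene that prolongs ERK activity, had a signal of 7734 in untreated, 9886 in H258-treated and 2264 in H342-treated cells, 3.35-fold lower than untreated. This was the same order of arrays as for SPRY4 and DUSP1, H258 the highest and H342 the lowest. FOS was detected only with H342, at a signal of 285, at least 3.70-fold higher than untreated, and the AP-1 gene JUNB was 2.54-fold, IER2 2.73-fold and FOSB 2.003-fold higher. Without background correction JUNB, IER2 and FOSB had log2 differences of 0.94, 0.80 and 0.70, and 0.93, 0.82 and 0.69 in the deposited values. FOS had 1.12 and 1.24, below its bound of background-corrected values, so that of the 4 only FOS stayed past 2-fold. IER2 was also called with H258, 2.11-fold higher. EGR1, a target that ERK induces through SRF and ELK1, was at 543 in untreated, 593 in H258-treated and 711 in H342-treated cells, a log2 difference of 0.60 with H342, and was not called. Other targets that were not called went both ways with H342, with ETV4 at 0.84, MYC at -0.67 and PHLDA1 at -0.58.

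**Figure D4:**
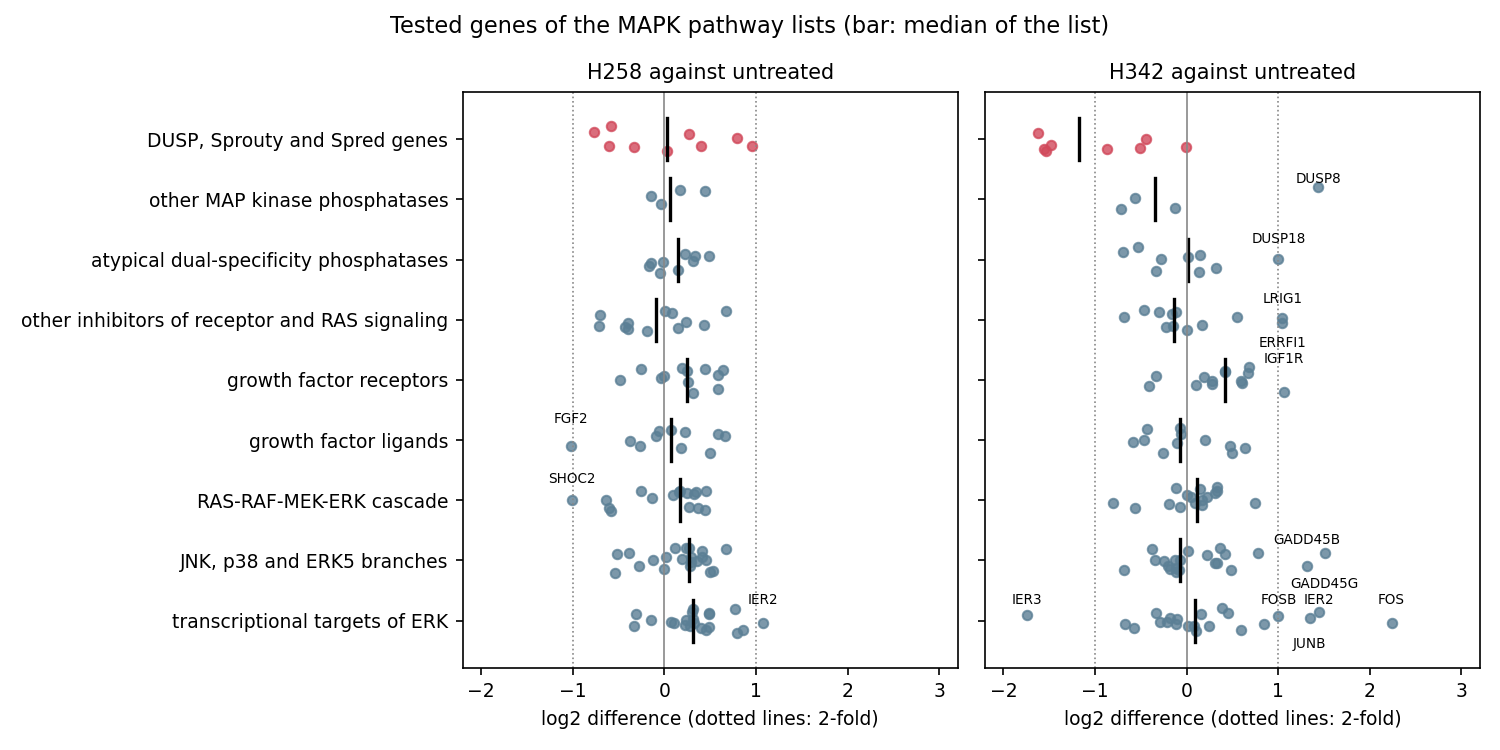
Log2 difference from untreated cells of each tested gene of the set and of 8 other lists of the pathway, with H258 on the left and H342 on the right; each point is a gene, its height within a row is arbitrary, bars are medians and dotted lines mark 2-fold. With H342 the median of the set is -1.18, which includes 3 genes tested only through untreated cells and is -0.51 over the genes detected on both arrays and -0.67 without background correction. The medians of the other lists, of background-corrected values, lie between -0.35 and 0.42.

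The 5 genes whose pattern was nearest to that of SPRY2, by the distance between their log2 differences with H258 and with H342 over 9217 genes detected on all arrays, were BCOR, HASPIN, ZNF200, FASTKD5 and PGBD3. The distances were between 0.03 and 0.12. BCOR, a corepressor, had a signal of 1456 in untreated, 1475 in H258-treated and 550 in H342-treated cells. HASPIN, a kinase of histone H3, was at 461, 467 and 223. SPRY2 was thus not alone in this pattern of no difference with H258 and a lower level with H342, which rests on 3 arrays.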

How the data were processed

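Each condition gave 1 array of biotin-labeled cRNA, and the file and the text name different versions of the BeadChip. The authors deposited intensity values per probe, bead averages from BeadStudio 3.1.3.0 (per the labels) with no normalization between arrays, and a detection p-value for each. The authors also deposited a table of normalized intensity values, whose normalization method is not given in the sources used here. Of 48798 probes, 20705 had no single gene symbol and were left out.

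The deposited signals were background-corrected and quantile normalized with neqc (limma 3.58.1, R 4.3.3; offset 16, with negative control levels that neqc derives from detection p-values) and put on the log2 scale. The further steps used Python 3.11.15 with numpy 2.4.6, pandas 2.3.3 and matplotlib 3.10.9. A gene was represented by its probe with the highest mean, tested where the detection p was under 0.05 on at least 1 of the 2 arrays compared, and called at 2-fold. An undetected side was set to the lowest detected level of its array for a bound. The normalization and calling steps were tested on simulated data. Differences were simulated only for probes well above background, so the test does not cover dim genes such as DUSP6, DUSP10 and SPRY4. With 1 array per condition, a left-out array, a block and a p-value were not possible, and the 3 arrays limit the precision.

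The comparisons were each dye against untreated cells and H342 against H258. The members and the gene lists were chosen with earlier results of these data known. Named were every member probe, of each other list the called genes (at most 4 per comparison with untreated cells) or, with none called, the 2 brightest, and the 5 genes nearest to SPRY2, the member with the largest difference among those detected on all arrays. MAP2K1, MAP2K2, MAPK3, EGR1, ETV4, MYC, PHLDA1, NF1 and the markers that define a cell type were named after their values were seen. Alternatives changed 1 step each: the offset (50) or omission of background correction, the method between arrays (median scaling, cyclic loess or none), the values (the deposited normalized table), the detection filter, the treatment of undetected sides, the choice of probe, and the fold (1.5 or 3). Promoter windows are from the RefSeq table of GRCh38.p14, matched by symbol.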

Additional observations from a re-analysis of the deposited data

How the results depend on the processing

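Depth is not given for arrays; signal over background limits the values, and DUSP6, DUSP10, SPRY4 and SPRY1 lie near it. Against untreated cells with H342, the 4 members called lower became 1 without background correction, in the deposited values, when detection on both arrays was required, and at 3-fold. The median of -1.18 became -0.67 without background correction, -0.71 in the deposited values, -0.69 with no detection filter and -0.51 with detection on both arrays. With H342 against H258, the 4 members called lower became 2 without background correction, with detection on both arrays and at 3-fold. The median of -0.88 became -0.54 with an offset of 50, -0.42 without background correction, -0.51 in the deposited values, -0.54 with detection on both arrays and -0.54 with undetected sides at their bound. With H258, 3 members were lower and 2 higher at 1.5-fold. The median of 0.03 became -0.0149 with median scaling, -0.0108 without between-array normalization, -0.0513 with cyclic loess, -0.0313 with no detection filter and -0.152 with detection on both arrays. The detection filters and the folds change which genes are tested or called by their construction, and for the others the cause was not tested. Of the values of single members under an alternative, 256 kept their direction and side of 2-fold, and 13 kept the direction but no longer passed 2-fold. The 256 include values that could not change. A detection filter leaves the value of a single member as it is, and no member had more than 1 detected probe to average. The count is therefore no measure of robustness. The other 3 changed sign without being called, all of them SPRY2 with H258, which went from 0.03 to -0.0149 with median scaling, -0.0108 without between-array normalization and -0.0513 with cyclic loess. Over all genes, the number higher with H258 went from 81 to 3 without background correction, 3 in the deposited values and 12 with an offset of 50, and the number lower from 353 to 109, 85 and 209. With H342 the number lower went from 382 to 146, 140 and 238 and the number higher from 132 to 26, 23 and 54. For H342 against H258 the numbers lower went from 380 to 157, 152 and 250, and the numbers higher from 385 to 136, 110 and 246. The number higher with H258 was 47 with median scaling, 49 without between-array normalization and 49 at a detection p under 0.01, and the number higher with H342 was 87 without between-array normalization. At 1.5-fold, 762 genes were higher and 1224 lower with H258 and 841 and 1041 with H342, and at 3-fold 1 and 30 with H258 and 15 and 109 with H342. For H342 against H258 they were 1189 and 1061 at 1.5-fold and 43 and 110 at 3-fold. No paired analysis was possible because each condition has 1 array.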
